A study of Mus musculus with 8 samples.

Results

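The genes described here are those whose symbol in the deposited KLF1-ER gene table is Zfp followed by a digit, the mouse prefix for zinc finger protein. They numbered 263 of the 11364 genes listed, and the same genes were found in the KLF1-E339K-ER table by Entrez identifier, length and mean level. In the deposited set of 5551 consensus ChIP-seq sites, 76 had a Zfp gene as the closest transcription start site (TSS). These sites named 53 Zfp genes, of which 50 were in the gene table, and the other 3 (Zfp541, Zfp575 and Zfp704) were outside it. KLF1 is an erythroid transcription factor that reads DNA with C2H2 zinc fingers of its own, and E339K is a substitution in the second of them, made in mouse KLF1 as a model of the human KLF1 mutation of congenital dyserythropoietic anemia (CDA) type IV.

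All cells came from K1, an erythroid line from Klf1-deficient mouse fetal liver, so that every group lacked endogenous KLF1. K1-ER cells carried a fusion of wild type KLF1 with the ligand-binding part of the estrogen receptor, and K1-E339K-ER cells (labelled CDA-KLF1-ER) its E339K form. The labels give 3 K1 and 3 K1-E339K-ER libraries of 4sU-labelled nascent RNA (500 µM 4sU for 30 min), with 200 nM 4-OHT except in 1 K1 library labelled as ethanol. The methods of the study state another 4sU dose and a longer labelling time than the labels do. They also give 1 ChIP library, made with an antibody to the estrogen receptor, and 1 input library, both from K1-E339K-ER cells after 3 h in 200 nM 4-OHT. That ChIP library came from a single clone and from pooled replicates, and the KLF1-ER libraries came from earlier work by the same group. Each expression level below is the authors' mean over the libraries of their fit, and each concentration is the authors' value for a protein. No value per library was at hand, so no level or concentration has an error, the depth is unknown and nothing was tested between the cell lines. The intervals given with shares are 95% Wilson intervals and cover counting only.

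Most genes with a Zfp symbol encode proteins with tandem C2H2 fingers, in which a pair of cysteines and a pair of histidines hold a zinc ion and a short helix contacts the DNA. A large subfamily also carries a KRAB box, which recruits the corepressor Trim28 and with it histone methylation and heterochromatin, often at retroelements. The KRAB subfamily lies in clusters of related genes. Other Zfp genes share only the name, such as Zfp36, Zfp36l1 and Zfp36l2, whose CCCH fingers bind AU-rich RNA and promote its decay.

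The concentration of a site is given per protein, as a log2 value of its normalized reads, and a difference of 1 is 2-fold. The KLF1-E339K-ER concentration was at least 2-fold above that of KLF1-ER at 52 of the 76 Zfp sites (68.4%, interval 57.3 to 77.8), against 61.5% of all sites. The KLF1-ER concentration was at least 2-fold higher at 18 Zfp sites (23.7%, interval 15.5 to 34.4), against 28.7% of all sites. Taken over all distances, both intervals include the share of all sites. The remaining 6 sites lay within 2-fold. The median mutant minus wild type difference was 3.30 at Zfp sites and 2.60 at all sites. The wild type concentration was at -0.09, the lowest value listed, at 20 Zfp sites (26.3%, against 25.7% of all sites), and a difference from such a value depends on that floor. The mutant concentration was at its lowest value, -0.38, at 3 Zfp sites, those of Zfp217 (15837 bp from its TSS), Zfp384 (8221 bp) and Zfp446.

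**Figure D1:**
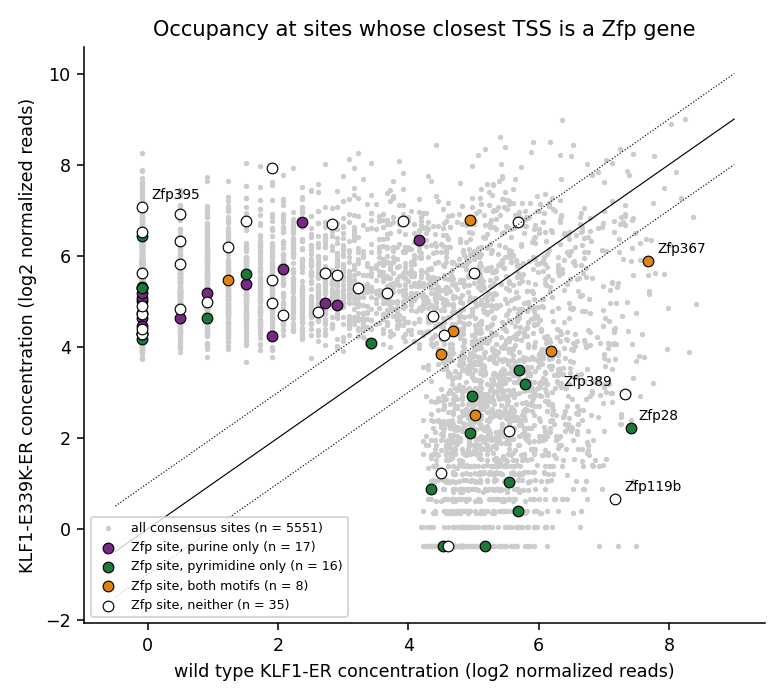
Each point is a consensus site, with the wild type KLF1-ER concentration on the horizontal and the KLF1-E339K-ER concentration on the vertical axis (both log2 normalized reads), the solid line marking equal values and the dotted lines 2-fold. Grey points are all 5551 sites and large points the 76 Zfp sites, colored by motifs within 50 bp of the midpoint: the 17 sites with only the purine form lie above the upper dotted line, and 10 of the 16 with only the pyrimidine form lie below the lower one.

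Zfp sites lay close to promoters. The midpoint was within 1 kb of the TSS at 40 of the 76 sites (52.6%, interval 41.6 to 63.5), against 39.5% of all sites, and the median distance was 845.2 bp against 2936 bp. Of the 40 Zfp sites within 1 kb, 30 had the higher mutant concentration (75%, interval 59.8 to 85.8), against 57.5% of all sites within that distance, and 7 the higher wild type concentration (17.5%, interval 8.75 to 31.9), against 31.0%. Within 10 kb the mutant was higher at 42 of 57 Zfp sites (73.7%, interval 61.0 to 83.4), against 60.4% of all such sites, and the wild type at 11 (19.3%, interval 11.1 to 31.3), against 28.8%. For the mutant-higher sites the intervals at both distances lie above the share of all sites, although several sites share a gene and no test was made. The sites within 1 kb are part of those within 10 kb, so the 2 distances are not separate support. Within 10 kb the wild type was at its floor at 19 Zfp sites (33.3%, interval 22.5 to 46.3), against 23.9% of all such sites. Of the 19 Zfp sites beyond 10 kb, 10 had the higher mutant concentration (52.6%, interval 31.7 to 72.7), against 63.9% of all such sites, and 7 the higher wild type concentration (36.8%, interval 19.1 to 59.0), against 28.4%. By GENCODE M1, 41 midpoints were intergenic, 25 intronic, 8 in a UTR and 2 in a noncoding exon. The closest TSS was not always that of the host gene: the Zfp428 site lay in a UTR of Cadm4, the Zfp414 site in an intron of Myo1f and the Zfp575 site in a UTR of Ethe1.

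KLF1 recognizes a C-rich or G-rich box of 9 bases. It was searched on both strands of the NCBIM37 (mm9) sequence within 50 bp of each midpoint, in forms that differ at the fifth base. The study derived the purine form from its KLF1-E339K-ER peaks and the pyrimidine form from its KLF1-ER peaks, over the same distance. A split of these sites by form was thus partly fixed in advance. The purine forms were NGGGAGGGG, NGGGAGTGG, NGGGGGGGG and NGGGGGTGG, and the pyrimidine forms were NGGGCGGGG, NGGGCGTGG, NGGGTGGGG and NGGGTGTGG. Forms of both kinds can overlap each other in a G-rich run, and each match was counted. The sequences below are those of the sites that show the split most plainly, each 61 bases 5′ to 3′ on the strand of the match, with the match in capitals. They were chosen for the highest concentration with a single kind of motif, and Zfp384 is shown because it had a site of each kind. A wild type-higher site that ranked above that of Zfp384 was left out, and is named with the choice of genes below. First come 6 sites with the purine form only and the higher mutant concentration:
Zfp687, chr3:94818595-94818655, plus strand: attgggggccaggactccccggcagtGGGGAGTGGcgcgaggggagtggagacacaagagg
Zfp217, chr2:169957024-169957084, plus strand: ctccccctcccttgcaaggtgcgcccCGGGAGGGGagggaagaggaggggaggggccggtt
Zfp609, chr9:65670106-65670166, plus strand: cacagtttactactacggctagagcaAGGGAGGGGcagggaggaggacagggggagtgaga
Zfp61, chr7:25083699-25083759, plus strand: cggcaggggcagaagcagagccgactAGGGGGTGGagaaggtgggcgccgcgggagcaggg
Zfp62, chr11:49016246-49016306, plus strand: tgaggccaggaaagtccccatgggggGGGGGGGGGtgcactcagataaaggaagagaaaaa
Zfp384, chr6:124959657-124959717, plus strand: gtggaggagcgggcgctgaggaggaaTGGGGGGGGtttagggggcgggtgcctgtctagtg

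Next come 5 sites with the pyrimidine form only and the higher wild type concentration, Zfp384 among them again:
Zfp28, chr7:6335977-6336037, plus strand: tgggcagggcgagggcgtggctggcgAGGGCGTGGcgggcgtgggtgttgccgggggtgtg
Zfp296, chr7:20163459-20163519, plus strand: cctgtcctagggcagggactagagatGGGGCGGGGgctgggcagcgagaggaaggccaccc
Zfp36, chr7:29161479-29161539, minus strand: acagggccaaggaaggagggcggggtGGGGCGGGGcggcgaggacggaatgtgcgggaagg
Zfp395, chr14:65997563-65997623, plus strand: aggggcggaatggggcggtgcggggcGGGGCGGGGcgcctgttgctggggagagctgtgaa
Zfp384, chr6:124967863-124967923, minus strand: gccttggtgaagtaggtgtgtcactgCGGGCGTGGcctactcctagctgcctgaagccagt

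Both kinds of motif were about as common at Zfp sites as elsewhere: the purine form at 25 sites (32.9%, against 35.5% of all sites) and the pyrimidine form at 24 (31.6%, against 35.3%). Their split between the proteins was wide, but the forms were derived from the peaks of these proteins, so the split is no independent support. All 17 Zfp sites with only the purine form had the higher mutant concentration, as did 1090 of 1253 such sites in the whole set. Of the 16 Zfp sites with only the pyrimidine form, 10 had the higher wild type concentration and 5 the higher mutant concentration, against 802 and 305 of 1238 in the whole set. Of the 8 Zfp sites with both kinds, 3 were higher for each protein, while in the whole set 473 of 720 such sites were higher for the mutant and 164 for the wild type. The 8 include the Zfp217 sites 41656, 59249.5, 62996 and 77956.5 bp from its TSS, so a single gene weighs heavily in this split. Neither kind was found at 35 Zfp sites (46.1%, against 42.2% of all sites), and 27 of these had the higher mutant concentration, against 1546 of 2340 in the whole set. Such a site lacks these letters in a window of 101 bp, which says nothing of binding to other sequence.

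Read base by base, the fifth position held G in 23 and A in 12 of the 45 matches at Zfp sites with the higher mutant concentration. At Zfp sites with the higher wild type concentration it held C in 15 and T in 7 of 29 matches. In the whole set G made up 61.0% of matches at the mutant-higher sites and C 52.6% at the wild type-higher sites, against 51.1% and 51.7% at Zfp sites. Matches overlap and several can come from a single site, so they are not independent. The forms also came from the same peaks, which partly fixes these counts.

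The 5 exceptions, with only the pyrimidine form and the higher mutant concentration, were sites of Zfp318, Zfp362, Zfp410, Zfp692 and Zfp710. Zfp410, whose human counterpart activates CHD4, had a mutant concentration of 6.44 at 471.5 bp from its TSS and the lowest listed wild type value. Both kinds of motif stood at the Zfp143 site, where the matches overlapped each other. With their flanks they lay within chr7:117205501-117205563. Zfp143, an activator that binds promoters and the anchors of chromatin loops, had concentrations of 4.95 for wild type and 6.78 for mutant there.

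Among Zfp genes with a site within 10 kb, the highest wild type concentrations were at Zfp367, Zfp28 and Zfp389. The Zfp367 site 428 bp from the TSS had 7.67 for wild type and 5.89 for mutant, so that both proteins were high. Zfp28, a KRAB gene, had 7.41 and 2.22 at a site 21.5 bp from its TSS whose sequence held 4 pyrimidine forms. Zfp389, annotated as a pseudogene, had 7.33 and 2.96 at 173.5 bp, with no match of either kind. Zfp119b had 7.17 and 0.66 at a site 13075.5 bp away, also with no match.

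The highest mutant concentrations within 10 kb were at Zfp395, Zfp358 and Zfp143. Zfp395 had 7.07 for mutant and the floor value for wild type at an intronic site 354.5 bp from its TSS. Zfp358 had 6.91 and 0.50 at 195.5 bp. Zfp760, a KRAB gene, had 6.76 and 3.91 at 4912 bp, and Zfp740, whose product binds GC-rich DNA, had 6.53 and the floor value at 4679.5 bp. The highest of all Zfp sites was that of Zfp541 with 7.92 for mutant and 1.91 for wild type, 24371.5 bp from a gene outside the expression table.

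Zfp687 and Zfp592 encode partners of the chromatin reader Zmynd8, and both had the higher mutant concentration. The Zfp687 sites 530.5 bp and 86 bp from the TSS had mutant concentrations of 6.73 and 5.82 and wild type concentrations of 2.37 and 0.50. The Zfp592 site at 558 bp had 5.30 for mutant and the floor value for wild type. Zfp609, which encodes a partner of the cohesin loader Nipbl, had 5.70 and 2.08 at an intronic site 5225.5 bp from its TSS.

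Of the 13 Zfp genes with 2 or more sites, 7 had sites of both directions (53.8%, interval 29.1 to 76.8), against 389 of 1103 such genes in the whole set (35.3%). In 3 of them the opposite sites had midpoints under 1.5 kb apart. The whole set held 99 such pairs, and the share of its genes with such a pair is not given here. The 3 are thus shown without a background. At Zfp296, a partner of KLF4 in reprogramming, the first intronic site had 2.82 for wild type and 6.70 for mutant. The next site, 432 bp further into the gene, had 5.68 and 0.39, the reverse order, and carried the pyrimidine form printed above. At Zfp62 a site 725.5 bp upstream had 1.5 and 5.38, with 7 overlapping purine matches in a run of G, and a site 156 bp inside the gene had 5.54 and 2.14, a gap of 882 bp. At Zfp367 the gap was 1214 bp, with 2.61 and 4.76 at the second site.

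Zfp384, which binds runs of A and T, had 0.91 for wild type and 5.18 for mutant at a site 12.5 bp from the TSS. Its intronic site 8221 bp from the TSS had 5.18 and the mutant floor value. The order of the proteins and the kind of motif both differed between its promoter and its intron. Zfp395 had its wild type-higher site 20086.5 bp from the TSS, with 5.69 for wild type and 3.49 for mutant.

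Zfp217, a subunit of corepressor complexes with CtBP, had 6 sites, the most of any Zfp gene. The promoter site, 342.5 bp from the TSS, had 4.16 for wild type and 6.34 for mutant. The 5 others lay 15837 to 77956.5 bp away, all on the upstream side. Of these, 3 had the higher wild type concentration, with wild type values of 4.61, 6.19 and 5.02 beside mutant values of -0.38, 3.91 and 2.51. The farthest had 1.23 and 5.47, and the site at 41656 bp had 4.50 and 3.84.

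**Figure D2:**
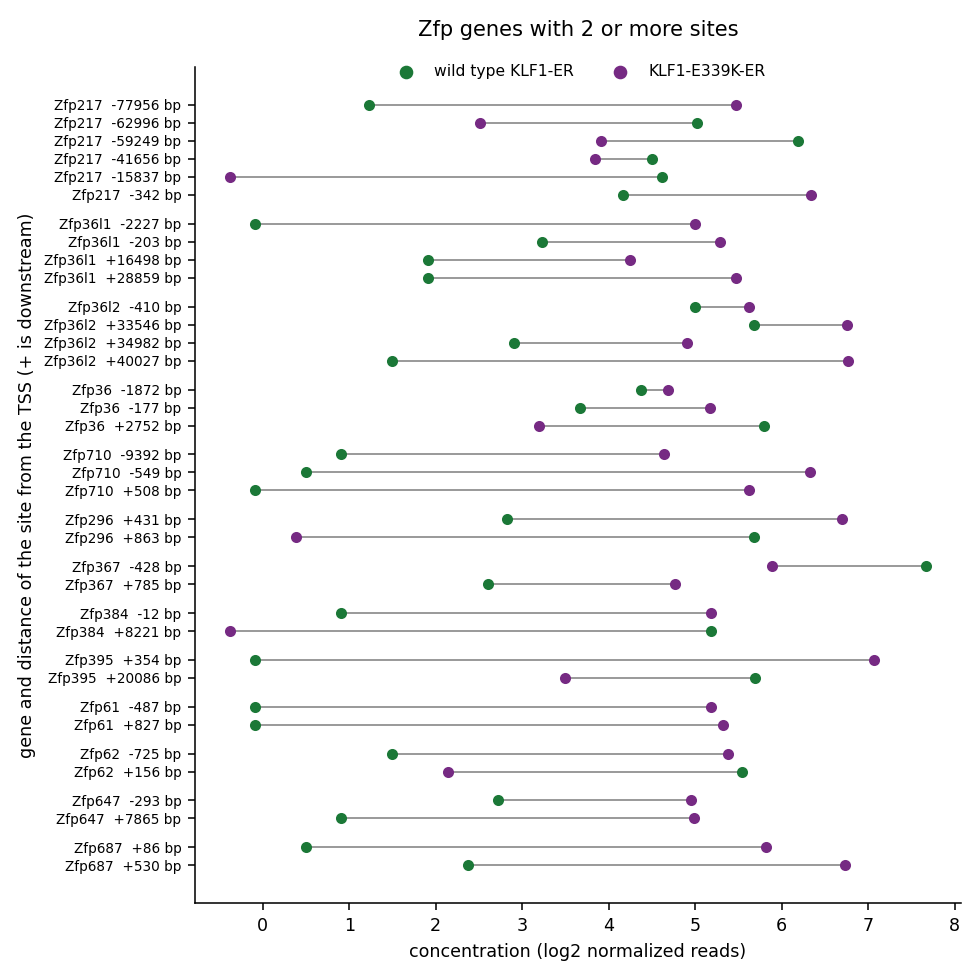
The 36 sites of the 13 Zfp genes with 2 or more sites, each on a line of its own named by the gene and its distance in bp from the closest TSS of that gene (negative upstream, positive downstream), with the concentrations (log2 normalized reads) of KLF1-ER in green and KLF1-E339K-ER in purple. In Zfp296, Zfp62, Zfp367, Zfp384, Zfp395, Zfp36 and Zfp217 the order of the proteins changes between sites, while Zfp36l1, Zfp61, Zfp647, Zfp687 and Zfp710 have the mutant higher at each site.

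The 3 CCCH genes together had 11 sites. Zfp36 (tristetraprolin) had 5.79 for wild type and 3.19 for mutant at a site 2752 bp from its TSS, on the 3′ side of the gene, with 3 pyrimidine matches. At its promoter, 177.5 bp from the TSS, the values were 3.67 and 5.17, and at 1872 bp they were 4.37 and 4.68. Zfp36l1 had 4 sites, all with the higher mutant concentration (4.24 to 5.47 for mutant and -0.09 to 3.23 for wild type). Zfp36l2, which is needed for the self-renewal of early erythroid progenitors, had 5.00 and 5.62 at its promoter and 3 sites 33546 to 40027.5 bp downstream. Those 3 had mutant concentrations of 6.75, 4.91 and 6.77 and wild type concentrations of 5.68, 2.91 and 1.5.

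Of the 263 members, 44 (16.7%, interval 12.7 to 21.7) were the closest TSS of a site within 10 kb, against 2408 of 11364 genes (21.2%). Members with such a site had a median level of 5.48 log2 CPM (1.51 per kb of gene length), and those without had 4.53 (0.49 per kb). The same order held over all genes, at 5.94 with and 5.11 without a site (1.29 and 0.69 per kb).

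The nascent RNA of Zfp genes was spread over the whole range of levels, with a median of 4.63 log2 CPM (quartiles 3.18 and 6.05) against 5.27 for all genes (quartiles 3.39 and 6.63). Zfp genes were shorter, with a median length of 15633 bp against 20990 bp. Whether reads were counted along the whole gene or over exons is not given in the sources used here. Per kb the medians were 0.64 and 0.82, a smaller gap. Of the members, 43 (16.3%, interval 12.4 to 21.3) ranked in the top 25% of genes by log2 CPM, and 60 (22.8%, interval 18.2 to 28.3) did per kb.

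The 5 highest levels per kb were those of Zfp553 (5.35), Zfp646 (5.25), Zfp296 (4.95), Zfp687 (4.90) and Zfp574 (4.60). Zfp609 had 9.09 log2 CPM over a length of 135982 bp, or 2.00 per kb. The 5 lowest per kb were Zfp433 (-5.18), Zfp385b (-5.08), Zfp248 (-4.95), Zfp459 (-4.87) and Zfp934 (-4.65). These ranks rest on the deposited lengths. Of 258 members placed in GENCODE M1, 187 (72.5%) had a span there within 10% of the deposited length. The span of Zfp934 was 0.077 of its deposited length and that of Zfp459 was 0.524, so their low levels per kb depend on the length used. None of the 5 lowest had a site within 10 kb, and of the 5 highest Zfp296 and Zfp687 had them. In total 6 members had a mean under 0 log2 CPM.

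**Figure D3:**
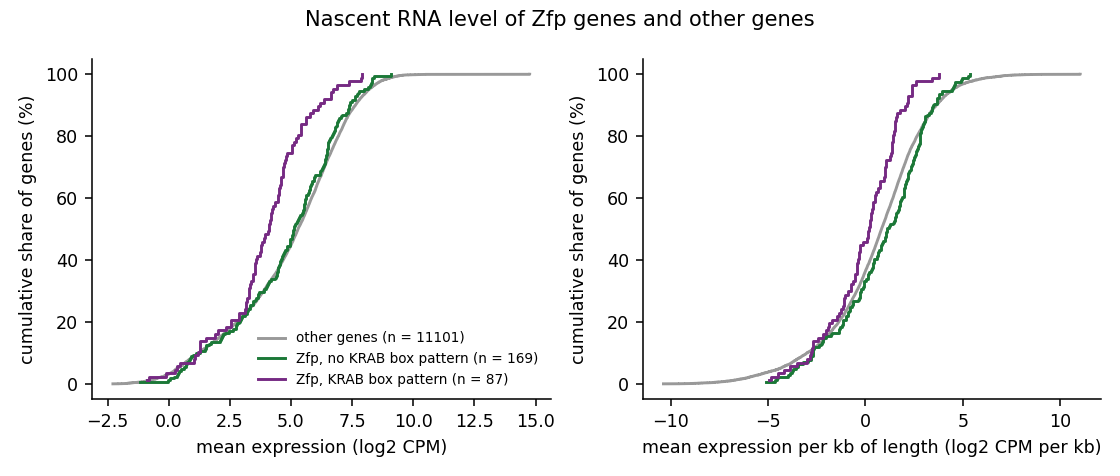
Cumulative share of genes (%) against the mean nascent RNA level, as log2 CPM on the left and log2 CPM per kb of gene length on the right, for the 87 Zfp genes with a KRAB box pattern (purple), the 169 with no match to it (green) and the 11101 other genes (grey). The KRAB curve lies to the left over most of its upper range in both panels, while the other Zfp genes run close to the grey curve.

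Coding sequences from GENCODE M1 were found for 256 members and translated by script. At least 1 C2H2 finger was counted in 247 of them (96.5%), against 4.79% of all genes with a coding sequence, with a median of 9.5 fingers (quartiles 6 and 13) and a maximum of 36 in Zfp142. A KRAB box pattern was found in 87 members (34.0%), against 1.06% of all genes. The pattern misses some KRAB genes, Zfp708 and Zfp932 among them, so the other 169 members are those with no match and not those known to lack the box. No C2H2 finger was counted in the 3 CCCH genes and in Zfp703, Zfp259, Zfp330, Zfp616, Zfp707 and Zfp839. The annotated coding sequences of Zfp616 and Zfp707 are incomplete, with a length that is no multiple of a codon, so their count shows nothing about the proteins.

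Members with the pattern had the lower median level. Their median was 4.10 log2 CPM (quartiles 3.14 and 4.93) and 0.20 per kb, against 5.10 (quartiles 3.33 and 6.46) and 1.12 per kb for the 169 with no match. They had more fingers, with a median of 12 against 8. A site within 10 kb was listed for 8 members with the pattern (9.20%, interval 4.73 to 17.1), and for 35 of the others (20.7%, interval 15.3 to 27.4). Of all genes 21.2% had such a site. The authors removed multi-mapped ChIP reads, and the effect of this on sites in clusters of close paralogs was not tested. The 8 were Zfp28, Zfp82, Zfp382, Zfp566, Zfp607, Zfp760, Zfp786 and Zfp809. Their sites were wild type-higher at Zfp28 and Zfp82 and mutant-higher at the other 6. Of all sites within 10 kb, 60.4% were mutant-higher and 28.8% wild type-higher. These 8 were listed after their values were seen.

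**Figure D4:**
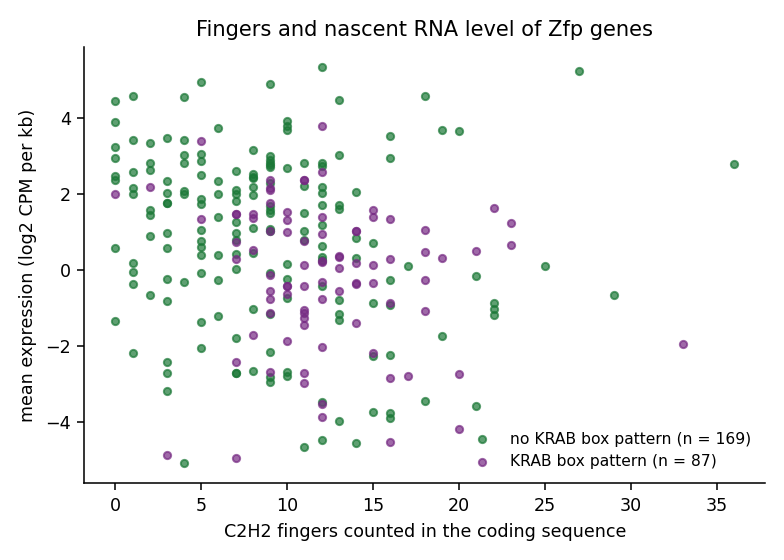
Each point is a Zfp gene with a coding sequence, by the number of C2H2 fingers counted in it (horizontal axis) and its mean nascent RNA level in log2 CPM per kb (vertical axis), in purple with a KRAB box pattern (n = 87) and in green with no match to it (n = 169). Levels spread over several log2 units at each number of fingers, and across the 256 genes Spearman's rho was -0.27.

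Across the 256 genes the number of fingers and the level per kb had a Spearman's rho of -0.27. The genes share the same libraries and related genes share sequence, so they are not independent points.

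Several KRAB members with known targets were well transcribed. Zfp445, which keeps genomic imprints with Zfp57, was at 7.90 log2 CPM (3.8 per kb), and Zfp568, a repressor of the placental promoter of Igf2, was at 7.86 (2.39 per kb). Zfp809, which silences retroviruses through their primer-binding site, was at 5.62 (1.48 per kb). Its intronic site 3923.5 bp from the TSS had a mutant concentration of 4.39 and the floor value for wild type. Zfp932 and Zfp708, both KRAB silencers of retroelements, were at 2.93 and 1.11 log2 CPM (-0.87 and -3.73 per kb), and their coding sequences did not match the box pattern. Zfp57 and Zfp819 were not among the genes listed.

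The corepressor genes through which KRAB proteins act were all listed, 17 of 17, at a median of 2.59 log2 CPM per kb. Trim28, the corepressor itself, was at 8.47 (5.68 per kb), the methyltransferase gene Setdb1 at 7.98 (2.91 per kb) and the maintenance DNA methyltransferase gene Dnmt1 at 8.84 (3.12 per kb). The de novo enzyme gene Dnmt3a was lowest, at 1.73 (-5.02 per kb). Neither Trim28 nor Setdb1 was the closest TSS of a site, and 5 of the 17 were (Hdac2, Chd4, Mta2, Dnmt3b and Uhrf1), where 26.4% of all genes were the closest TSS of a site at any distance.

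Of the factors that bind G-rich or other promoter sequence, 10 of 10 were listed, at -0.30 to 3.49 log2 CPM per kb. Of the 10, 6 were the closest TSS of a site at any distance, against 19.0% of Zfp genes and 26.4% of all genes. Zfp148 and Zfp281, which bind G-rich boxes like those of KLF1, marked the ends of that range of levels and had no site. Zfp335, which binds promoters, was at 3.04 per kb, and its intronic site had 0.50 for wild type and 4.62 for mutant. Zfp384 was at 2.18, Zfp143 at 0.79 and Zfp410 at 0.78 per kb.

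Members with roles on RNA, ribosomes or ubiquitin were listed for 10 of 11 names, at -0.06 to 4.59 log2 CPM per kb, and 0 of the 10 were the closest TSS of a site, against 19.0% of Zfp genes and 26.4% of all genes. Zfp346, which binds double-stranded RNA, was at 8.32 log2 CPM (3.42 per kb). Zfp598, the ubiquitin ligase that marks collided ribosomes, was at 6.20 (2.58 per kb), and Zfp207, a spindle protein, at 7.31 (2.82 per kb). Zfp593, a factor of ribosome biogenesis, was the highest of them per kb, at 4.59. Of 12 developmental regulators 5 were listed: per kb, Zfp296 was at 4.95, Zfp768 at 3.69, Zfp217 at 3.18, Zfp703 at 2.49 and Zfp64 at 1.04. Zfp42 (Rex1), Zfp521 and Zfp423 were not. The CCCH genes were at 5.20 (Zfp36), 4.77 (Zfp36l1) and 6.46 (Zfp36l2), with 3.91, 2.38 and 4.45 per kb.

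Zfp genes lay in clusters. Chromosome 7 held 70 of the 263 members (26.6%), against 7.33% of all genes with a listed chromosome, chromosome 17 held 34 and chromosome 13 held 23. Of the 258 members placed in GENCODE M1, 141 (54.7%, interval 48.6 to 60.6) had another member as the next listed gene, in 39 runs, against 2.91% of other genes beside a member. Of members with the KRAB box pattern 80.5% had such a neighbor, and of those with no match 41.4%.

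Among members placed in GENCODE M1, the longest run held 12 genes on chr7:30553571-30954746, from Zfp84 to Zfp146. It had a median level of 0.85 log2 CPM per kb and a range of -2.01 to 3.8. Zfp383, at -2.66 per kb, was not placed there and is left out of the run. Its RefSeq start in GRCm38.p6 lies between those of Zfp84 and Zfp146. Sites in the run lay near the TSS of Zfp82, Zfp566 and Zfp382, so that neighbors in a run differed both in level and in binding. At Zfp82 the wild type concentration was higher (4.98 against 2.91), and at Zfp566 and Zfp382 the mutant one (4.62 and 4.27) with wild type at its floor. A run of 9 genes on chromosome 13, which includes Zfp708, had a median of -2.77 per kb (range -4.87 to 0.67). A run of 10 on chromosome 17 had the same median per kb (-3.88 to 0.41), and a run of 8 on chromosome 6 had a median of 1.95 per kb (0.13 to 3.15). Reads can be shared between close paralogs in such clusters, and the counting of such reads is not given in the sources used here, so levels within a cluster are uncertain.

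RefSeq promoter windows (GRCm38.p6, 250 bases before to 50 after the start) were matched by symbol for 217 members, with 270 windows. The purine form was present in 70 of them (25.9%, interval 21.1 to 31.5), against 22.6% of all promoters, and the pyrimidine form in 101 (37.4%, interval 31.9 to 43.3), against 29.7%. Windows of the same gene can overlap and hold the same match, as those of Zfp346 do. The windows are therefore not independent, and the intervals do not allow for this. Zfp windows were also richer in G and C, with a median of 56.7% against 52.7%, and the part of this in the motif counts was not tested. The windows of Zfp74, Zfp78 and Zfp110 have other Entrez identifiers than the expression entries with these symbols, so they can belong to different genes.

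As a check of the cell type, 12 of 12 erythroid markers were listed, from 0.75 (Alas2) to 6.68 log2 CPM per kb (Gata1). Of the markers of other cell types, 0 of 5 lymphoid and 0 of 4 hepatocyte genes were listed, with 2 of 6 myeloid (-0.16 and -1.57 per kb), 2 of 4 megakaryocyte (1.08 and 1.25 per kb) and 1 of 4 stromal genes (-5.66 per kb). Per kb, the megakaryocyte genes Gp9 and Itga2b were thus above Alas2 and below the other 11 erythroid markers. The order depends on the measure. By log2 CPM, Itga2b (5.3) was above Hba-a1 (3.79), Hbb-b1 (3.87) and Alas2 (5.29) and below the other erythroid markers. Gp9 (1.79) was below all of them.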

How the data were processed

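Ion Proton reads were mapped to mm9 by the authors with TopHat2 (2.0.10 in the submitters' processing notes) and TMAP (RNA) or TMAP alone (ChIP), with reads of low mapping quality, or duplicate and multi-mapped reads, removed. The counting tool and gene annotation are not given in the sources used here. In the gene tables the authors deposited the mean level as voom's log2 CPM, averaged over all libraries of their limma fit, and in the site table DiffBind's log2 concentration of each protein. The depth of the libraries is unknown. Gene lengths, site positions and TSS distances are deposited in bp.

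The 3 tables also hold the authors' own comparisons: log2 fold changes, t, p-values and adjusted p-values between cell lines in the gene tables, and fold, p-value and FDR in the site table. None was used. No values per library were analysed, so the results are descriptions, with no test, and a mean level has no direction between cell lines.

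A gene's level per kb is its mean log2 CPM minus log2 of its deposited length in kb. For 9 members the symbol differs in the KLF1-E339K-ER table, and 23 genes have a Zfp symbol only there. Not all of the 9 are synonyms. The entry of Zfp78 carries the Entrez identifier of Zfp81, and those of Zfp74 and Zfp110 are named Zfp72 and Zfp114 there. Which gene these entries measure is therefore uncertain. The sign of the deposited TSS distance follows the genome and not the gene strand, so distances are given without it: the midpoint plus the signed distance fell within 500 bp of a GENCODE start at 72 of 76 sites. Sequences and positions were taken from NCBIM37 and GENCODE M1. A C2H2 finger was counted as the cysteine and histidine pairs 12 residues apart. The motif search, finger count and translation were run on 500 simulated sequences and recovered 100% of the planted items. The items were planted in the form searched for, the motifs among A and T only. The recovery thus checks the code and not its performance on GC-rich sequence or real proteins. The KRAB box pattern was not checked in this way. Scripts ran in Python 3.11.15 with pandas 2.3.3, NumPy 2.4.6 and SciPy 1.17.1.

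Members and lists were chosen with earlier results of these data known. The genes named were the 15 with the highest concentration among those with a site within 10 kb, the 5 highest and 5 lowest per kb, and the genes on the lists of roles, of corepressors and of markers. Other genes, such as those with sites of both directions, the exceptions to the motif split, Zfp541 and Zfp119b, were chosen after their values were seen. The site left out of the printed sequences was that of Zfp438, 455.5 bp from its TSS, with only the pyrimidine form. Its concentrations were 5.55 for wild type and 1.03 for mutant, while the printed wild type-higher site of Zfp384 had 5.18 for wild type. Alternatives were other windows, 4-fold in place of 2-fold, filters on concentration and level, and the symbols of the other table.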

Additional observations from a re-analysis of the deposited data

How the results depend on the processing

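No paired analysis was possible because the deposited tables hold no values per library, and for the same reason no replicate could be left out. The gap between the median level of Zfp genes and of all genes was -0.65 log2 CPM and became -0.18 per kb of length. With only sites of a concentration of at least 5, the share of members with a site within 10 kb became 9.89% and the mutant-higher Zfp sites 32 of 45. The shares of all genes and all sites under that filter are not given here, so neither value can be compared with them. Within 10 kb of the TSS the wild type-higher sites were 11 of 57. The purine form was found at 19.7% of Zfp sites within 25 bp, at 48.7% within 100 bp and at 60.5% over the whole site, against 25%, 48.2% and 58.4% of all sites. Over the whole site the pyrimidine form was found at 55.3%, against 58.6%. In the 150 bases nearest the start, 20% of Zfp promoters held the purine and 31.5% the pyrimidine form. The share of all promoters in that window is not given here, so these values cannot be set against it. The median mutant minus wild type difference was 3.30, and 2.15 without the sites at a floor. The other alternatives tried for these results moved counts by less than 1.5 times and kept shares and medians within the 95% interval that the number of genes or sites gives. The restriction to genes of the expression table, and the concentration filter on the median difference, were added after the data were seen. The unknown depth and the floor of each concentration limit the smallest differences that could be read.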
